A study of Homo sapiens with 372 samples.

Results

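The cholesterol synthesis genes described here are HMGCS1, IDI1, FDPS, FDFT1, SQLE, CYP51A1, DHCR7 and INSIG1, 8 of the 9664 genes in the table. They were taken by symbol, from a list chosen with earlier results of these data known. Each was found once in the table and has a value in every cell, so that all 8 are reported in all 6 conditions. The cells are A2780, 1 established human ovarian cancer cell line, so the genotype is the same in every condition and the labels differ in drug and time. Control cells received no drug, and the 5 treatments were paclitaxel (PAC, 5 nM) for 16 or 48 h, celecoxib (Cele, 75 µM) for 2 or 16 h, and both drugs together at these doses for 16 h. Paclitaxel binds and stabilizes microtubules, and celecoxib is an inhibitor of cyclooxygenase 2. Full-length polyA RNA of single cells was copied with Smart-seq2 on the Fluidigm C1 system, with 3 spike-in RNAs added to every cell. The set goes by the name of cholesterol synthesis and uptake genes, but 7 of the members are enzymes of synthesis and 1, INSIG1, is a regulator. None of them takes up cholesterol.

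Cells make cholesterol from acetyl-CoA, for the most part at the endoplasmic reticulum. A first arm of the pathway, the mevalonate arm, builds isoprene units and joins them into farnesyl diphosphate, which also serves for protein prenylation, and a second arm turns farnesyl diphosphate into squalene, closes it into a ring and trims it to cholesterol. The genes are regulated together by SREBP transcription factors: when membrane sterol is low, SCAP carries SREBP to the Golgi for cleavage, and when sterol is high, INSIG proteins hold the complex back. INSIG1 is itself a target of SREBP, and growing tumour cells use the pathway for new membrane.

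The promoters of the members were read from RefSeq (GRCh38.p14), which gave 10 start sites for 6 of the 8 members, and none was found for FDFT1 and SQLE. Motifs were searched on both strands in windows from 250 bases before to 50 bases after each start. The core TCACNCCAC of a sterol regulatory element, as SREBP binds it, was in 0 of the 10 member promoters and in 1.13% of the 35116 promoters in the table. The box CCAAT, which binds NF-Y, a partner of SREBP at many sterol genes, was in 6 of the 10 and in 34.6% of all promoters. The GC box GGGCGG was in 9 of the 10 and in 45.0% of all. These are matches of letters in a fixed window and not binding sites, and none of the 3 motifs contains another. The 250 bases before the start are shown for FDPS and IDI1, whose levels were lowest relative to control after 16 h of celecoxib, for DHCR7, which was lower than control in every treatment, and for CYP51A1, which stayed within 0.27 of control at the same total per cell in every treatment. Capitals mark CCAAT and GGGCGG on either strand. FDPS lies at chr1:155308616-155308865 on the plus strand, IDI1 at chr10:1049120-1049369 on the minus strand (of 3 start sites, the one next to the annotated gene), DHCR7 at chr11:71448394-71448643 on the minus strand (of 2 start sites, both inside the annotated gene, the one with motif matches) and CYP51A1 at chr7:92134478-92134727 on the minus strand.
FDPS: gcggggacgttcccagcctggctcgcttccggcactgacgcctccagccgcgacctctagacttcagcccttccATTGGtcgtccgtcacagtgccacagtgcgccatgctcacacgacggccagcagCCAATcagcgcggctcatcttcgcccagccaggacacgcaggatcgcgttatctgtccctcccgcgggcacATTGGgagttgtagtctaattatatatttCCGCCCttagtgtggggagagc
IDI1: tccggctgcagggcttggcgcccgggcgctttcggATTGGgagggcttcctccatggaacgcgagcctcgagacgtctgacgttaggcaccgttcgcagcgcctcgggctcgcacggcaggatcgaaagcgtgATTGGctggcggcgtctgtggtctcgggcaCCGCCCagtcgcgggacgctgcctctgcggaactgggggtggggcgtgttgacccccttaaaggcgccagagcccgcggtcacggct
DHCR7: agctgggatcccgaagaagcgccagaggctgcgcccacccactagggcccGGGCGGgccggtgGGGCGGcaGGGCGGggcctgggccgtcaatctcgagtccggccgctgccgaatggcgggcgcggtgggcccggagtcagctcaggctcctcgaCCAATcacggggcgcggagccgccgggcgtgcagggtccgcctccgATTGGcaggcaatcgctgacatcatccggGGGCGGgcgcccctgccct
CYP51A1: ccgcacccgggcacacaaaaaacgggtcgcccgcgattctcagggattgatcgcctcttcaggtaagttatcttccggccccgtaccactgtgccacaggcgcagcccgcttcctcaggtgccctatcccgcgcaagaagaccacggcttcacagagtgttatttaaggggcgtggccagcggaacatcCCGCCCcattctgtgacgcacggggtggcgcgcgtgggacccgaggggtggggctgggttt
The FDPS window has 3 CCAAT boxes and 1 GC box, that of IDI1 2 and 1, and that of DHCR7 2 and 4. The CYP51A1 window has 1 GC box and 0 CCAAT boxes. The IDI1 start site at chr10:1048887-1049136 has 3 CCAAT boxes, of which an overlapping pair lies on opposite strands, and the remaining start site has none.

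On hg38 with GENCODE version 44, the members that belong to the mevalonate arm lie on chromosome 5 (HMGCS1, 43287470 to 43313512, minus strand), chromosome 10 (IDI1, 1039152 to 1049119, minus strand) and chromosome 1 (FDPS, 155308748 to 155320666, plus strand). CYP51A1 (7, 92084987 to 92134803, minus strand), DHCR7 (11, 71428193 to 71452868, minus strand) and INSIG1 (7, 155297776 to 155310235, plus strand) complete the set together with FDFT1 and SQLE, which are both on chromosome 8. All are protein-coding genes. Smart-seq2 does not mark the strand, and a gene on the opposite strand overlaps 6 of the members, among them AKAP9 over CYP51A1 and RUSC1-AS1 over FDPS. The annotation also names 8 pseudogenes of FDPS, 3 of IDI1 and 3 of CYP51A1, with which reads may be shared, so that the levels of these genes are uncertain in that respect.

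The table holds 338 of the 372 cells listed: 46 control cells, 56 and 53 after 16 and 48 h of paclitaxel, 63 and 61 after 2 and 16 h of celecoxib, and 59 given both drugs. No replicate culture is named, and the library labels carry 1 code per condition, different for each and of unstated meaning, so every condition counts as 1 sample, and no test, p-value or standard error between conditions is given. SDs are spreads over cells, and the condition and whatever this code marks cannot be told apart. Values are E-values, log2(N/10 + 1), with N standing for a gene's TPM divided by the cell's level of the most abundant spike-in RNA, itself taken relative to its mean over cells, so that genes are comparable per length. The median sum of N per cell was 0.504 and 0.643 of the control value after 16 and 48 h of paclitaxel, 0.591 and 0.348 in the celecoxib treatments of 2 and 16 h, and 1.40 under both drugs. Every difference is therefore given also at the same total per cell, for which N was multiplied in each cell by the number that brings all cells to 1 common sum. Read depth is unknown, and the median number of genes detected lay between 6125 and 6630 per cell in the 6 conditions. Of 16 marker genes of epithelial, ovarian, mesenchymal and other cells, 2 are listed: VIM with a value above 0 in 74.0% of cells and KRT18 in 28.4%. The 3 ovarian markers PAX8, WT1 and MUC16 are not listed, nor are the 5 markers of immune, fibroblast and endothelial cells, and the table lists a gene only if it was detected in over 30% of the cells of a condition.

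The levels of the 8 members spanned a wide range per length within the same cells. FDPS, which joins isoprene units into farnesyl diphosphate, had the highest mean E-value over all cells, 5.37, with a value above 0 in 98.8% of cells. FDFT1, squalene synthase and the first enzyme committed to sterols, followed at 4.12 and 98.5%. IDI1, which isomerizes isopentenyl diphosphate, had 2.60 and 85.5%, and CYP51A1, which removes a methyl group from lanosterol, 2.01 and 90.2%. The other 4 were weak: 1.16 for DHCR7, the reductase of the last step, 1.03 for SQLE, the squalene epoxidase, 0.88 for INSIG1 and 0.64 for HMGCS1, the HMG-CoA synthase at the entry. They were detected in 53.6%, 61.5%, 42.6% and 54.1% of the cells.

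**Figure D1:**
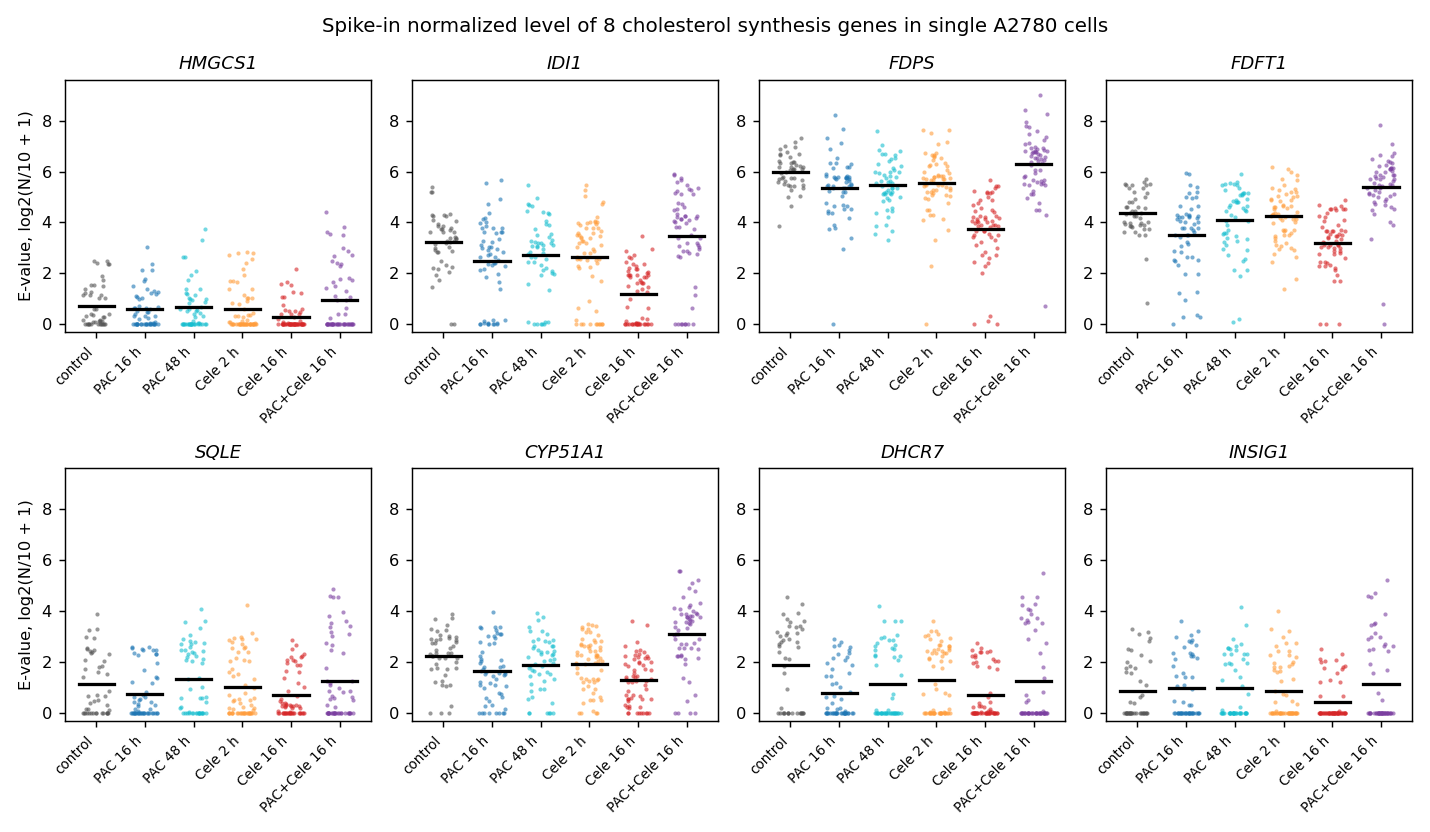
E-value of each member (vertical axis, log2(N/10 + 1), 1 panel per gene) in every cell of the 6 conditions (horizontal axis), with 1 point per cell and a black line at the mean. FDPS and IDI1 have their lowest mean after 16 h of celecoxib, at 3.74 and 1.20, FDFT1 and CYP51A1 their highest with the combination, at 5.39 and 3.10, and DHCR7 its highest in control cells, at 1.90.

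All 8 members had their lowest mean E-value of the 6 conditions after 16 h of celecoxib. At the same total FDFT1, SQLE and DHCR7 were lowest after 16 h of paclitaxel instead. The cells given celecoxib for 16 h also had the lowest median cell total, 0.348 of control. The share of all genes that were lowest in these cells was not computed. Against control, 5 of the 8 members (IDI1, FDPS, FDFT1, CYP51A1 and DHCR7) were lower by more than the fixed limit of 1.5-fold in mean E-value (0.585 on the log2 scale), where 43.9% of all genes were, and 0 were higher by that much, where 0.383% of all genes were. The median difference over the 8 members was -1.06, against -0.48 over all genes. With equal totals, IDI1, FDPS and DHCR7 were lower past the limit, 3 of 8 where 7.95% of all genes were, and 0 were higher, where 7.38% were. The member median there was -0.13 and that of all genes 0.03. FDFT1, SQLE, CYP51A1, HMGCS1 and INSIG1 were within 0.13 of control at the same total.

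FDPS was detected in all 46 control cells, with E-values from 3.85 through a median of 6.09 to 7.30. After 16 h of celecoxib they ran from 0 through 3.97 to 5.68 in 61 cells. Of these 61 cells 0 were above the control median and 27 were below the lowest control cell, although the ranges overlapped. The mean was 6.00 ± 0.67 (SD, n = 46 cells) in control and 3.74 ± 1.29 (SD, n = 61 cells) after celecoxib, a difference of -2.25, and 1.24% of all genes had a lower difference. The linear mean was 0.242 of control. The difference was -0.995 once totals were equal, with 9 of 61 cells above the control median.

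IDI1 had E-values from 0 through a median of 3.36 to 5.40 in control cells. After 16 h of celecoxib the range was 0 to 3.48, with a median of 1.47, and 1 of 61 cells lay above the control median. The ranges overlapped, since 2 control cells had no IDI1 either. The share of cells with IDI1 was 95.7% in control (exact Clopper-Pearson 95% interval 85.2 to 99.5, which covers counting error only) and 70.5% (57.4 to 81.5) after celecoxib. The mean was 3.23 ± 1.12 (SD, n = 46 cells) and 1.20 ± 1.06 (SD, n = 61 cells), a difference of -2.04, or -1.17 at the same total.

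DHCR7 was the other member lower on both scales after 16 h of celecoxib. Its control E-values ran from 0 through 2.51 to 4.57, and those after celecoxib from 0 through 0.04 to 2.76, so that 2 of 61 cells exceeded the control median. The difference in the mean was -1.18, and -0.64 at the same total. The share of cells with DHCR7 was 65.2% (49.8 to 78.6) in control and 52.5% (39.3 to 65.4) after celecoxib, intervals that overlap, whereas the mean over the cells that had it was 2.91 and 1.36.

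FDFT1, the branch point after FDPS, differed from control by -1.18 on the spike-in scale and by 0.06 at the same total. Its E-values ran from 0.84 through 4.35 to 5.71 in control cells and from 0 through 3.28 to 4.87 after 16 h of celecoxib. CYP51A1 likewise differed by -0.94 on the spike-in scale and by -0.13 at the same total. HMGCS1, SQLE and INSIG1 had differences of -0.46, -0.44 and -0.42, all short of the limit. Of the low genes, INSIG1 was detected in 27.9% (17.1 to 40.8) of these cells and in 45.7% (30.9 to 61.0) of control cells. All 8 members were detected together in 10 of 46 control cells and in 0 of 61 cells after 16 h of celecoxib, which allows a share of up to 5.87% (exact 95% interval).

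**Figure D2:**
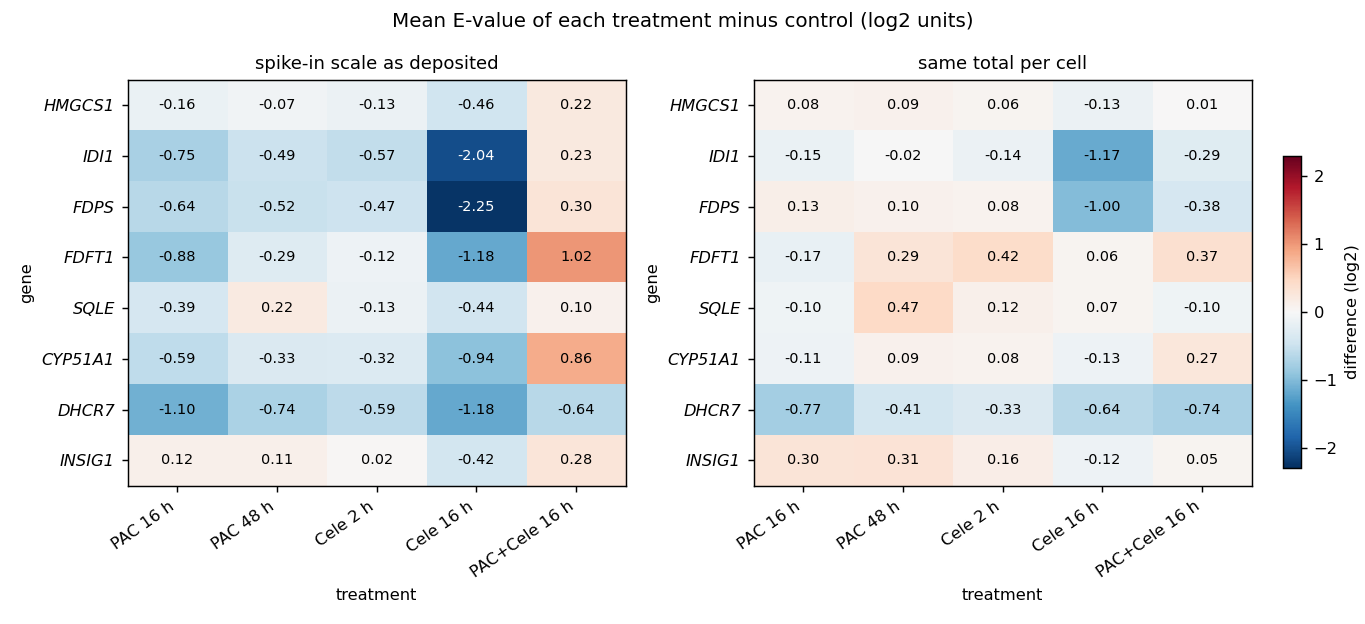
Mean E-value of each treatment minus that of control (colour and printed value, log2 units) for each member (vertical axis) and treatment (horizontal axis), as deposited on the left and at the same total per cell on the right. At the same total IDI1 and FDPS stand at -1.17 and -0.995 after 16 h of celecoxib, and DHCR7 is below 0 in all 5 treatments, from -0.33 to -0.77.

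After 2 h of celecoxib the members differed from control about as all genes did. DHCR7 alone was past the limit, at -0.59, 1 of 8 where 25.7% of all genes were lower, and 0 of 8 were higher, where 1.12% were. With equal totals 0 of 8 were lower and 0 higher, against 8.11% and 3.31% of all genes. The member medians were -0.23 and 0.08, beside -0.26 and -0.02 over all genes. FDPS at 2 h ran from 0 through 5.69 to 7.64 and IDI1 from 0 through 3.05 to 5.47, both overlapping control widely. From 2 to 16 h of celecoxib FDPS differed by -1.79 and IDI1 by -1.47, and at the same total by -1.08 and -1.03. In this comparison 0.352% of all genes had a lower difference than FDPS at the same total, and 0.517% a lower one than IDI1.

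After 16 h of paclitaxel 5 of the 8 members were lower than control past the limit on the spike-in scale, where 37.3% of all genes were, and 0 were higher, where 0.0931% were. Those were IDI1 (-0.75), FDPS (-0.64), FDFT1 (-0.88), CYP51A1 (-0.59) and DHCR7 (-1.10). The member median was -0.62 and that of all genes -0.41. With equal totals, only DHCR7 was past it, 1 of 8 where 10.0% of all genes were, at -0.77, and 0 were higher, where 1.40% were. FDPS then was at 0.13, and INSIG1 was at 0.30. DHCR7 had a median of 0.14 and a highest value of 2.90 in these cells, and 5 of 56 cells lay above the control median. Its linear mean was 0.247 of control, and the mean over cells that had DHCR7 was 1.53 against 2.91 in control.

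After 48 h of paclitaxel DHCR7 was again the 1 member lower past the limit, at -0.74, where 26.6% of all genes were, and 0 were higher, where 0.921% were. Relative to the total 0 were lower, against 5.77% of all genes, and 0 higher, against 3.28%. SQLE, the epoxidase that commits squalene to the ring, and INSIG1 were the 2 members with a mean above control as deposited (0.22 and 0.11). At the same total 6 of 8 were above it, with SQLE at 0.47 and INSIG1 at 0.31. Being above control was common there, as the median over all genes was 0.003, and the share of all genes was not computed. The E-values of SQLE ran from 0 through 1.03 to 4.08, against 0, 0.67 and 3.88 in control. The ranges overlapped almost fully. The member median was -0.31 as deposited and 0.10 at the same total, beside -0.26 and 0.003 over all genes. The 48 h cells come from 2 blocks of 96 library numbers, and 31 of them share the block of the control cells. Within that block DHCR7 differed by -0.71 and SQLE by 0.30, and at the same total by -0.40 and 0.51. The 22 cells of the other block had lower levels of IDI1 (-0.94), FDPS (-0.93) and FDFT1 (-0.69), all past the limit, and DHCR7 was at -0.77.

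With both drugs for 16 h the median of the members differed from control about as that of all genes did. FDFT1 (1.02) and CYP51A1 (0.86) were higher than control past the limit, 2 of 8 where 30.4% of all genes were, and DHCR7 (-0.64) was lower, 1 of 8 where 1.76% were. Relative to the total 0 were higher, against 5.95% of all genes, with FDFT1 at 0.37 and CYP51A1 at 0.27, and DHCR7 was lower, at -0.74, where 5.79% of all genes were. The member median was 0.25 beside 0.33 over all genes, and at the same total -0.04 beside 0.02.

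FDFT1 ran from 0 through 5.56 to 7.83 with the combination, and 53 of 59 cells lay above the control median. This held for 45 of 59 cells with equal totals. CYP51A1 ran from 0 through 3.39 to 5.59, against 0, 2.34 and 3.88 in control, with 44 of 59 cells above the control median, and 34 of 59 at the same total. The cells at the top were thus above every control cell while those at the bottom had no CYP51A1, as 3 control cells also had none.

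DHCR7 with the combination was above 0 in 42.4% of cells (29.6 to 55.9) and in 65.2% (49.8 to 78.6) of control cells. Where it was detected its mean was 2.97, against 2.91 in control, and its linear mean over all cells was 0.899 of control. The lower mean E-value thus went with fewer cells that had the transcript on the spike-in scale, and at the same total the linear mean was 0.499 of control. By block of library numbers DHCR7 differed by -0.68 in 34 cells and by -0.583 in 25 cells, the latter just short of the limit. HMGCS1 and INSIG1 had a like split, with a value in 47.5% and 39.0% of cells against 71.7% and 45.7% in control, and means over those cells of 2.03 and 2.93 against 1.04 and 1.90. For both, the share of cells and the mean went in opposite directions, and no order is read from the shares.

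Set against the single drugs, the combination had higher levels of IDI1 and FDPS than celecoxib for the same 16 h. The differences were 2.26 and 2.56 on the spike-in scale and 0.88 and 0.61 at the same total. Over all genes the median difference from celecoxib was 0.88 on the spike-in scale and -0.008 at the same total. Within the 1 block of library numbers that holds 25 combination cells and all 61 celecoxib cells, IDI1 differed by 2.28 and 0.93, and FDPS by 2.35 and 0.49, the latter short of the limit. Against paclitaxel for 16 h, FDFT1 was higher by 1.90 and by 0.54 at the same total, and FDPS differed by 0.95 and by -0.51. In the block shared by 34 combination and all 56 paclitaxel cells, these were 1.89 and 0.49 for FDFT1 and 1.10 and -0.42 for FDPS. Over all genes and cells the median difference from paclitaxel was 0.80, and 0.10 at the same total. On the spike-in scale 57.5% of all genes had a lower difference from paclitaxel than FDPS, and 94.8% a lower one than FDFT1.

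Ordering the 6 conditions by mean E-value separately for each member gave 40 pairs of neighbours. The gap exceeded the larger SD over cells in 1 of them, between FDPS after 16 h of paclitaxel and after 16 h of celecoxib, and in 0 of them at the same total. All comparisons with control use the same 46 control cells, so they are not independent of each other.

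Quantities that do not change when all values of a cell are multiplied by 1 number also set FDPS apart from FDFT1. The 8 members held a median of 792 ppm of the summed N of a control cell, 868 and 911 ppm after 16 and 48 h of paclitaxel, 919.6 and 583 ppm in the celecoxib treatments of 2 and 16 h, and 712 ppm when both drugs were given. The mevalonate arm held 534 ppm in control, 624 and 597 after 16 and 48 h of paclitaxel, 593 and 313 for celecoxib at 2 and 16 h, and 430.5 when both drugs were given. The sterol arm held 227 ppm in control and, in the same order, 224, 303, 278, 231 and 302. Within single cells, FDPS exceeded FDFT1 3.32-fold at the median in control and 3.34-fold after 16 h of paclitaxel. This ratio was 2.28 after 48 h of paclitaxel, 2.68 and 1.55 in the celecoxib treatments of 2 and 16 h, and 1.64 under both drugs. FDPS was the higher of the pair in 45 of 46 control cells, in 40 of 57 cells after 16 h of celecoxib and in 45 of 58 cells under both drugs. The cells left out lacked one of the pair.

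**Figure D3:**
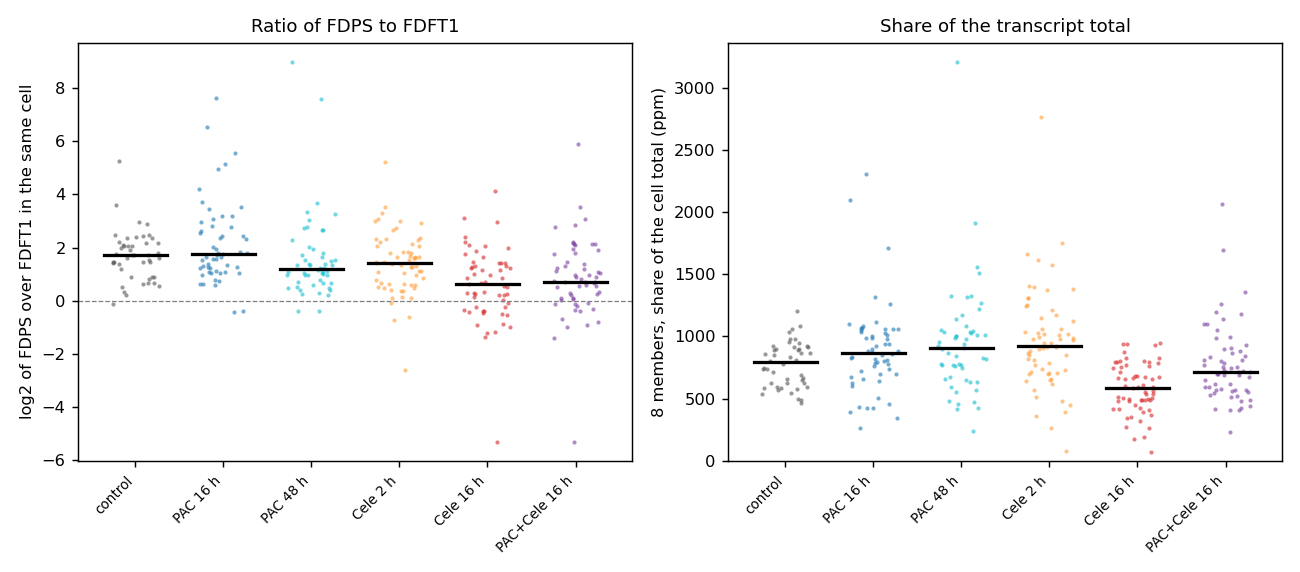
Left, log2 of the ratio of FDPS to FDFT1 in each cell that had both (vertical axis), and right, the share of the cell total held by the 8 members in ppm (vertical axis), by condition (horizontal axis), with 1 point per cell and a black line at the median. The 16 h celecoxib and the combination cells have the lowest median ratios, 0.63 and 0.71 on the log2 scale against 1.73 in control, and the ranges of all conditions overlap.

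Across the cells of a condition the members varied together to a modest degree, except after 16 h of celecoxib. The median Pearson's r of the 28 pairs of members was 0.22 in control (46 cells), 0.23 and 0.33 after 16 and 48 h of paclitaxel (56 and 53 cells), 0.21 and 0.06 in the celecoxib treatments of 2 and 16 h (63 and 61 cells) and 0.22 under both drugs (59 cells). The median over all gene pairs lay between 0.05 and 0.14. After 16 h of celecoxib it was 0.053, beside 0.056 for the members, of which 17 of 28 pairs were above 0. These correlations are descriptions, since the cells of a condition share a library code and differ in library depth and total. The mean of the 8 members had an r of 0.66 to 0.83 with the cell total. With equal totals the pair medians were between 0.02 and 0.19, beside 0.0045 to 0.0099 over all gene pairs. IDI1 with FDPS was the strongest pair on either scale, with a mean r over the 6 conditions of 0.48 and 0.27. The pair had an r of 0.51 to 0.61 in 5 conditions and 0.07 after 16 h of celecoxib. IDI1 with INSIG1 had a mean r of 0.32 and 0.25, and FDPS with FDFT1 0.42, which was 0.10 at the same total.

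**Figure D4:**
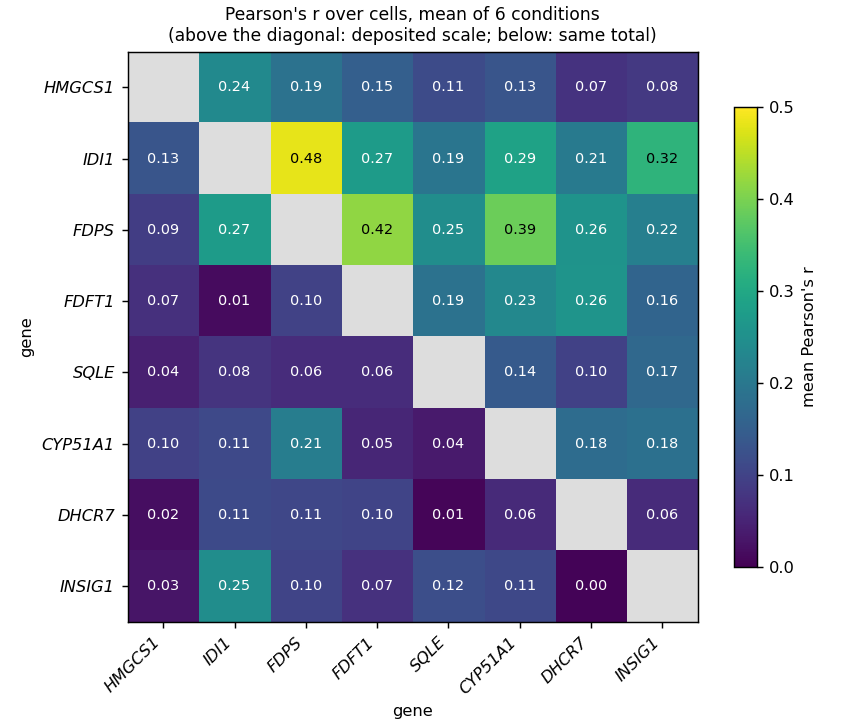
Pearson's r over cells for each pair of members (both axes), averaged over the 6 conditions, as deposited above the diagonal and at the same total per cell below it. IDI1 with FDPS has the highest value in both triangles, 0.48 and 0.27, and most pairs of weak genes are near 0 below the diagonal.

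The genes outside the pathway whose values followed the mean of the members most closely over cells, at the same total, were DBF4, a regulator of a kinase of DNA replication, with a mean r of 0.29 over the 6 conditions, CMC4 with 0.28, DNM2, a dynamin, with 0.27, TPP2, a peptidase, with 0.25, and LDHA, lactate dehydrogenase, with 0.25. They came from 7532 genes compared, whose median was 0.036. Of the other pathway genes, ACAT2, which condenses acetyl-CoA at the start of the pathway, had 0.24. All these values are weak and rest on between 46 and 63 cells per condition.

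Of 44 further genes of cholesterol supply, 35 are in the table. After 16 h of celecoxib 12 of the 35 were lower past the limit and 0 higher, and at the same total 2 were lower and 2 higher. After 16 h of paclitaxel 11 were lower and 0 higher, and at the same total 4 and 0, while after 48 h 6 were lower and 0 higher, and at the same total 1 and 4. After 2 h of celecoxib 7 were lower and 0 higher, and at the same total 3 and 2. With the combination 1 was lower and 13 higher, and at the same total 1 and 4. The shares of all genes past the limit are those given for the members in each treatment.

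ACAT2, which acts just before HMGCS1, was lower past the limit on both scales in all 5 treatments. Its mean E-value was 4.04 ± 1.296 (SD, n = 46 cells) in control, and the differences were -1.82 and -1.68 after 16 and 48 h of paclitaxel, -1.57 and -2.69 in the celecoxib treatments of 2 and 16 h and -0.88 under both drugs. Relative to the cell total they lay between -1.08 and -1.78. For the combination ACAT2 was not among the 4 largest differences and was named after its value was seen. After 16 h of celecoxib LBR, a sterol reductase that is also the lamin B receptor, was lower on both scales (-1.51 and -0.59). EBP, the isomerase of the sterol ring, was lower on both scales after 16 h of paclitaxel (-1.34 and -0.69) and after 2 h of celecoxib (-1.32 and -0.76). NSDHL, a dehydrogenase of the steps after CYP51A1, was lower on both after 2 h of celecoxib (-0.89 and -0.59). RNF139, a ubiquitin ligase of the endoplasmic reticulum, was lower on both after 16 h of paclitaxel (-1.03 and -0.69).

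Higher on both scales with the combination were NPC2, which hands on cholesterol in the lysosome (1.97 and 1.24), MSMO1, which acts after CYP51A1 (1.58 and 0.90), GGPS1, which lengthens the product of FDPS (1.45 and 0.75), and SOAT1, which esterifies cholesterol for storage (1.25 and 0.62).

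Between treatments, NPC2 was higher past the limit on both scales with the combination than with celecoxib for 16 h (2.56 and 0.71) or with paclitaxel for 16 h (2.18 and 0.80). TM7SF2, a sterol reductase of the same step as LBR, was higher likewise (1.93 and 0.80, and 1.69 and 0.75). HSD17B7, a reductase of the steps after CYP51A1, was higher than with celecoxib (1.78 and 0.67), and SOAT1 (2.04 and 0.75) and RNF139 (1.43 and 0.77) were higher than with paclitaxel. From 16 to 48 h of paclitaxel TM7SF2 (1.11 and 1.02), RNF139 (0.73 and 0.79) and PMVK, a kinase of the mevalonate arm (0.64 and 0.60), were higher. From 2 to 16 h of celecoxib ACAT2 was lower (-1.12 and -0.70), as IDI1 and FDPS were. Of all genes, 5.03% were higher past the limit on both scales with the combination than with celecoxib, and 9.56% than with paclitaxel. Between 16 and 48 h of paclitaxel 6.01% were higher on both, and between 2 and 16 h of celecoxib 3.90% were lower. The genes named were picked for passing on both scales, and whether the list differs from all genes in this was not tested.

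**Figure D5:**
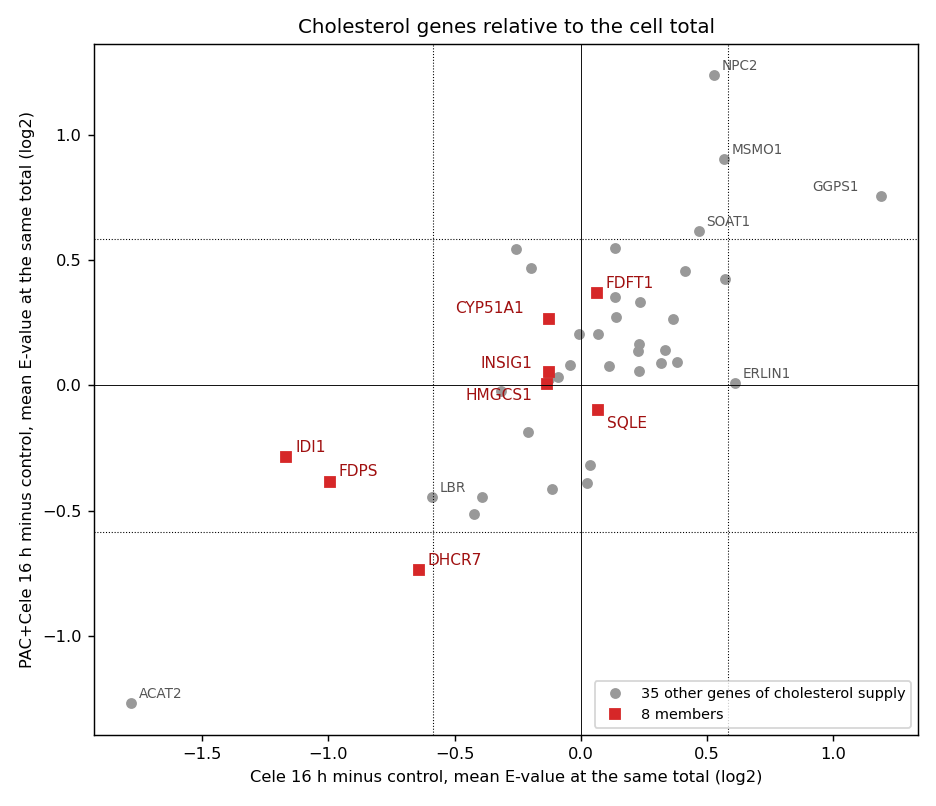
Difference from control in mean E-value at the same total per cell after 16 h of celecoxib (horizontal axis, log2) and with the combination (vertical axis, log2) for the 8 members (squares) and 35 other genes of cholesterol supply (circles), with dotted lines at the 1.5-fold limit. Both axes share the control cells, so the spread along the diagonal is in part common to them. IDI1 and FDPS lie left of the limit at -1.17 and -0.995, ACAT2 lies at the lower left, and NPC2 and MSMO1 at the top.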

How the data were processed

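Single cells of the A2780 line were measured in 6 conditions, with no named replicate and 1 library code per condition, and grouped by their labels. The authors trimmed reads with Trim Galore, aligned them with Bowtie2 to hg38 transcripts (GENCODE version 28) plus 3 spike-in sequences, took TPM from RSEM 1.3.0, divided each cell's TPM by that of the highest spike-in RNA, taken relative to its mean over cells, and left out 34 cells. What the authors deposited is on a log2 scale, the E-value log2(N/10 + 1), to 3 decimals, and covers a gene if over 30% of the cells in some condition had it. Of these values 34.9% were 0. The state that the authors assigned to each cell was not used. Read depth is not given, so its precision is unknown.

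From the E-values the linear N was recovered and means over cells were compared with a fixed limit of 1.5-fold, both as deposited and with every cell brought to 1 sum. The E-scale understates changes of weak genes. Doublets were not called, as no counts were at hand. Intervals of shares are exact Clopper-Pearson 95% ones and reflect counting error alone. The condition, the library code and mostly the block of 96 library numbers coincide: control cells are all in block 4, and only the 48 h paclitaxel and combination cells span 2 blocks.

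The genes named are all 8 members, listed pathway genes past the limit in the same direction on both scales (at most the 4 largest per comparison, some of which are not reported here), and the 5 genes most like the members. Likeness is the mean within-condition Pearson's r with the members' mean, over genes that 30% or more of the cells had in every condition. Members and lists were chosen with earlier results of these data known. The fold limit was tested on cells redrawn from the control cells with known changes planted, and the correlation on random numbers. Genes as weak as HMGCS1 and INSIG1 in control were not changed there. No common shift of the cell totals was planted, so that test does not cover such shifts. Alternatives were the same total, the ratio of mean linear values and a pseudocount of 1 (10 in the main values). Others were medians, a 50% detection limit, single blocks, and leaving out 1 cell from a well noted as 0 or debris. Coordinates are from GENCODE version 44 and promoters from RefSeq (GRCh38.p14). The software was numpy 2.4.6, scipy 1.17.1, pandas 2.3.3 and matplotlib 3.10.9 under Python 3.11.15.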

Additional observations from a re-analysis of the deposited data

Results flagged for a closer look

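For 4 members the difference between paclitaxel and no paclitaxel at 16 h went opposite ways without and with celecoxib, past the 1.5-fold limit on the deposited scale both times. IDI1 differed by -0.75 without celecoxib and by 2.26 with it, which are 3.01 apart. FDPS differed by -0.64 and 2.56, 3.20 apart. FDFT1 differed by -0.88 and 2.19, 3.07 apart, and CYP51A1 by -0.59 and 1.81, 2.40 apart. Each condition is 1 sample, so the difference was not tested. Over all genes the median gap was 1.33, and 33.7% of genes went from lower to higher past the limit in the same way. At the same total per cell the gaps were 1.03 for IDI1, 0.48 for FDPS, 0.47 for FDFT1 and 0.50 for CYP51A1. The median over all genes was 0.06, and none of these 4 members went opposite ways past the limit. The 4 were picked by their values as deposited. Of the other members DHCR7 had a gap of 0.68 at the same total, HMGCS1 0.06, SQLE -0.06 and INSIG1 -0.12.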

How the results depend on the processing

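Of 49 medians recomputed under the alternatives 41 stayed on the same side of the limit, as did 165 of 200 single-gene differences. A value short of the limit both times was counted as kept even where its sign changed. Of 60 counts 44 stayed within 1.5 times, and many of these were counts of higher members that were 0 and stayed 0. The median correlation of the member pairs, 0.22 over conditions, was 0.076 at the same total and 0.23 with Spearman's rho. At the same total per cell the member median was -0.10 after 16 h of paclitaxel, -0.13 after 16 h of celecoxib, 0.24 for the combination against celecoxib and -0.30 for celecoxib at 16 against 2 h, all then short of the limit, and -0.034 for the combination against paclitaxel, where the sign turned. Among members past the limit against control as deposited, FDPS there turned to 0.13 after 16 h of paclitaxel. FDFT1 turned to 0.063 after 16 h of celecoxib. The member median changed sign short of the limit after 48 h of paclitaxel (-0.31 to 0.10) and 2 h of celecoxib (-0.23 to 0.08). It did so with the combination too (0.25 to -0.04), as did several single members short of the limit. The members lower past the limit became 1, 0, 0 and 3 after 16 and 48 h of paclitaxel and 2 and 16 h of celecoxib, and those higher with the combination 0. A ratio of linear means gave a median of -0.40 and 1 lower member after 16 h of paclitaxel, 8 lower after 16 h of celecoxib, and with the combination a median of 0.64 with 6 higher and 0 lower. Medians over cells gave -0.57 after 16 h of paclitaxel. A pseudocount of 1 gave 2 lower members after 48 h of paclitaxel, 2 after 2 h and 8 after 16 h of celecoxib. Keeping genes that over 50% of the cells had in both conditions gave 0 lower after 48 h of paclitaxel and 0 with the combination, since DHCR7 was then left out. The block 2 cells alone gave 4 lower after 48 h of paclitaxel, and the block 3 cells alone gave 0 lower with the combination. The cause of the other changes was not tested. No paired analysis was possible because each condition is 1 sample and the result comes from no test, and for the same reason no sample could be left out. The within-block values and the ratios and shares within cells were added after seeing the data. Unknown read depth limits what a 0 in HMGCS1, SQLE, DHCR7 and INSIG1 can show.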
